A study of Homo sapiens with 12 samples.

Results

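The effect of a hairpin against KIM-1, given alone, was read from 6 samples of HK-2 cells, out of 12 samples in 4 groups of 3. The 3 samples named shKIM1-A1 carry the short hairpin RNA against KIM-1, and the 3 samples named Luc976 carry one named, by all appearance, after luciferase, which is no human gene, and serve as controls. The samples were chosen by their labels alone, and all 14230 genes with enough counts, of 26506 in the table, were compared. The other groups carry the hairpin shVHL61 against VHL (shVHL61) or shVHL61 together with the KIM-1 hairpin (shVHL61-KIM1A1), and they enter below only for the shared estimate of the spread and as a second setting of the same KIM-1 hairpin. HK-2 is a line of human proximal tubule epithelium immortalised with papillomavirus oncogenes. The labels give 1 hairpin against KIM-1, and they do not say whether a group is a clone or a pool of cells, nor whether its samples came from separate cultures. The p-values below thus reflect only how far these samples scatter, and that scatter may be technical.

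KIM-1, kidney injury molecule 1, is the product of HAVCR1, also called TIM-1. It is a membrane protein with an immunoglobulin domain and a mucin stalk that binds phosphatidylserine on dying cells. The healthy proximal tubule holds very little of it, injury induces it strongly, and it then lets tubule cells take up apoptotic bodies and oxidised lipids. In mice it has been described both as a receptor whose uptake of dead cells restrains inflammation and, when expressed for long, as a driver of kidney fibrosis.

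The 6 samples held 17094576 to 19743834 counts each, with 16593 to 16920 genes detected. A level is in CPM, the counts of a gene per 1000000 of the scaled library, unless TPM, which also divides by transcript length, is named. Log2 fold changes are shKIM1-A1 against Luc976, from edgeR's quasi-likelihood test, and a gene is said to rise or fall only where its p, adjusted over all 14230 genes, is below 0.05. The libraries also differ by the GC content of the transcripts they favour, in a way that cuts across the groups. By that property, read from the data, samples 1 and 3 of Luc976 and sample 2 of shKIM1-A1 form set A, and sample 2 of Luc976 with samples 1 and 3 of shKIM1-A1 form set B. Each set holds both groups, so every comparison can be repeated inside each, with 1 sample left in 1 of the groups. The sets split the same 6 samples by their own counts, so a repeat inside them is no independent support. Of 28 proximal tubule markers listed, 13 were abundant enough to test, and 7 were at 0 in all 6 samples, among them LRP2 (megalin), SLC22A6, SLC22A8, FBP1 and SLC6A19. The summed level of the whole list was 205.9 to 233.3 TPM in Luc976 and 270.4 to 286.5 TPM in shKIM1-A1. Markers of other nephron segments summed to 244 to 260.2 TPM in Luc976 and 257.1 to 274.9 TPM in shKIM1-A1. Of these 15, 3 could be tested and 8 were at 0 in all 6 samples. Fibroblast markers summed to 109.1 to 125.6 TPM and 114.7 to 153.8 TPM. Immune markers, of which 4 of 11 were at 0, summed to 133.3 to 141 TPM in Luc976 and 149.1 to 158.2 TPM in shKIM1-A1, and endothelial markers stayed at or below 1.01 TPM in every sample. The part of these markers in the results was not tested. In bulk RNA a smaller share of cells expressing a gene and less RNA per cell cannot be told apart.

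HAVCR1 stood at 113, 133 and 116 CPM in the Luc976 samples and 60.6, 52.0 and 58.4 CPM in the shKIM1-A1 samples. All 3 knockdown samples lay below all 3 controls, with the lowest control well above the highest knockdown sample. The fall was 1.08 on the log2 scale (SE 0.10, edgeR adjusted p = 1.49e-06), to 57.0 from 121 CPM on average, a ratio of 0.472. Inside sets A and B the value was -1.14 and -1.16. The authors' deposited table gives a ratio of 0.472 for the same gene. VHL, which this hairpin does not target, differed by 0.16 and did not pass (edgeR adjusted p = 0.064).

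Among the genes that bind or engulf dying cells, receptors moved in both directions. MERTK, a receptor tyrosine kinase that recognises dying cells through the bridging proteins GAS6 and PROS1, stood at 57.5, 57.6 and 57.0 CPM in the Luc976 samples and 36.8, 29.7 and 31.3 CPM in the shKIM1-A1 samples. The groups did not overlap, and MERTK fell by 0.82 (SE 0.07, edgeR adjusted p = 8.96e-07). SCARB1, a scavenger receptor for lipoproteins and phosphatidylserine, fell by 0.62, from 196, 177 and 199 CPM to 114, 139.8 and 119 CPM. In the other direction, GAS6 rose from 30.2, 28.8 and 32.0 CPM to 37.0, 49.7 and 39.2 CPM (log2 0.47, SE 0.11), again without overlap. LRP1, a large endocytic receptor, rose by 0.49, the lysosomal scavenger receptor SCARB2 by 0.47, and the integrin chains ITGB3 and ITGAV, which together bind the bridging protein MFGE8, by 0.64 and 0.30. ITGAV missed the threshold in set A alone and without sample 1 of shKIM1-A1 (edgeR adjusted p = 0.0798). ITGB5, the other partner of ITGAV in engulfment, fell by 0.35. AXL, a relative of MERTK with a mean of 403 CPM, differed by -0.14 and did not pass. In all, 6 of 25 tested members of this list rose and 5 fell, and 7 of its 32 members were too low to test. Over all genes tested 14.8% rose and 16.6% fell.

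**Figure D1:**
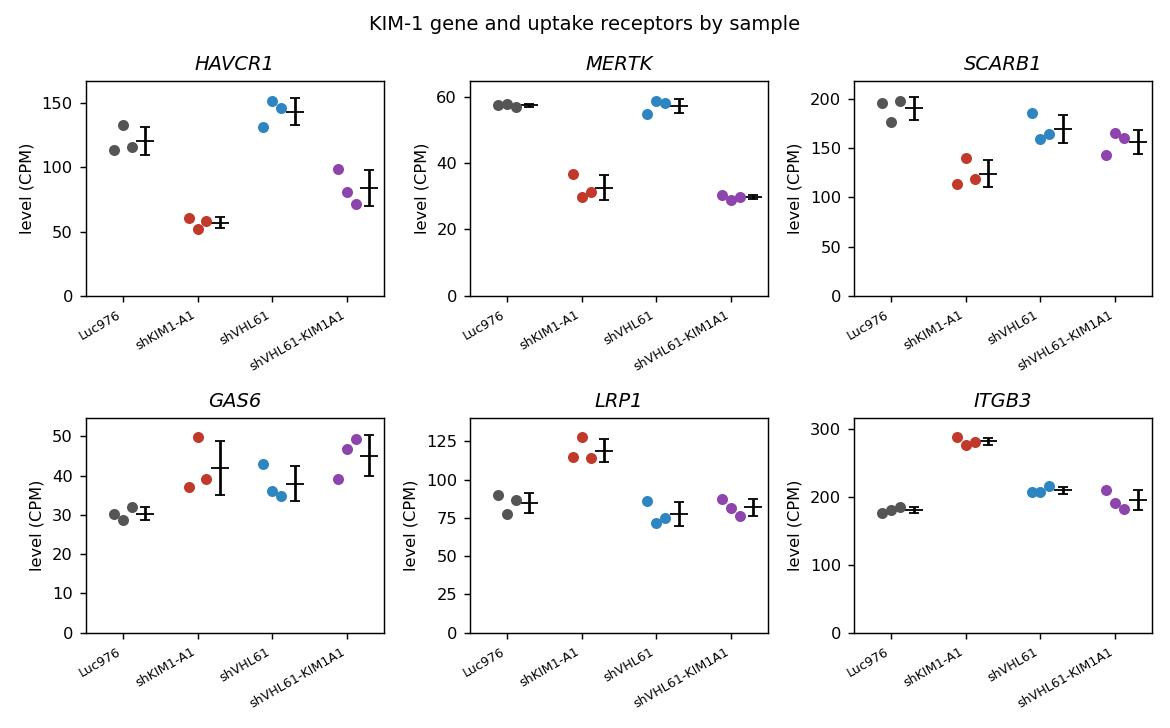
CPM of HAVCR1 and other dead-cell uptake genes in each sample (points, 3 per group) with the group mean and SD (bar) beside them, for Luc976, shKIM1-A1, shVHL61 and shVHL61-KIM1A1; each panel's axis starts at 0. HAVCR1, MERTK and SCARB1 were lower in every shKIM1-A1 sample than in every Luc976 sample, and GAS6, LRP1 and ITGB3 were higher in every one.

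Across the transcriptome 4464 genes passed, 31.4% of those tested, with 2108 higher (14.8%) and 2356 lower (16.6%). Every count of list members that rose or fell is to be read against these shares. Most changes were modest. The median size of a called change was 0.391 on the log2 scale, and 386 genes (2.71%) changed at least 2-fold, 232 up and 154 down. The 3 samples of the groups did not overlap for 5857 genes, 41.2% of those tested. Across all 14230 genes, which are not independent replicates, Pearson's r between the log2 fold changes inside sets A and B, which share no sample, was 0.546. Inside set A 1696 genes were called higher and 2115 lower, and inside set B 2049 and 2453. On TPM, where all genes shift by a median of 0.087 on the log2 scale against the CPM fit, limma called 3080 genes higher (21.6% of those tested) and 1402 lower (9.85%), so that 68.7% of its calls were higher, against 47.2% in the count fit. The split between rises and falls therefore depends on the scaling. For 18 of the 64 lists the median was below 0 on CPM and above 0 on TPM, so their counts carry no direction of the list as a whole: dead-cell uptake, interleukins, mitosis, BCL2 family, fatty acid synthesis, lipid transport, amino acid stress, TGF-beta, laminins, integrins, proximal tubule, kidney lineage factors, EGF family, AP-1 and MYC, Notch, actin, mitochondrial ribosomal proteins and ABC transporters.

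**Figure D2:**
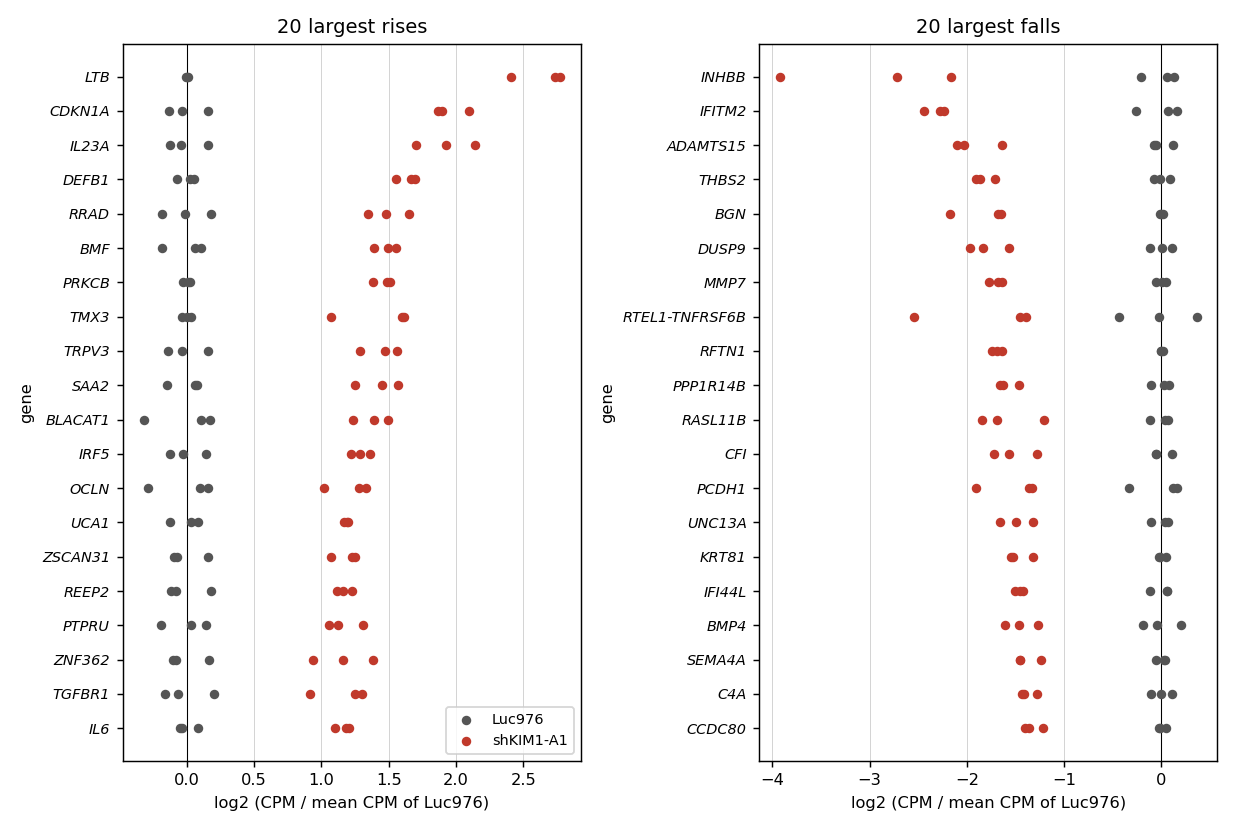
Log2 of the CPM of each sample over the mean CPM of Luc976 (points, 3 per group) for the genes with the 20 largest rises and the 20 largest falls by fitted log2 fold change among called genes whose groups did not overlap and whose log2 CPM averaged 2 or more. LTB (2.65) and CDKN1A (1.96) lead the rises, and INHBB (-2.77) and IFITM2 (-2.31) lead the falls.

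Among called genes whose groups did not overlap and whose log2 CPM averaged 2 or more, the largest rise was that of LTB, lymphotoxin beta, the membrane anchor of a TNF family ligand that signals through LTBR to NF-kB. It stood at 3.58, 3.60 and 3.63 CPM in the Luc976 samples and 19.1, 24.6 and 23.9 CPM in the shKIM1-A1 samples. The rise of 2.65 (SE 0.12, edgeR adjusted p = 6.48e-10) was 2.77 in set A and 2.58 in set B. LTBR itself, at 219 CPM in the controls, differed by -0.23 without passing. A pair of further large rises were cytokine genes. IL23A, the p19 chain of interleukin-23, went from 5.42, 4.71 and 4.46 CPM to 15.8, 21.5 and 18.4 CPM (log2 1.93), and IL6 from 28.2, 25.9 and 25.7 CPM to 61.3, 60.6 and 57.2 CPM (log2 1.16). Neither showed overlap. Among epithelial defence genes DEFB1, a constitutive beta-defensin of the kidney epithelium, rose by 1.64, while WFDC2, a secreted protease inhibitor, fell by 0.64. SAA2 rose by 1.43, but its reads may be shared with its near copy SAA1.

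NF-kB is a family of dimeric transcription factors held in the cytoplasm by inhibitors of the IkB family, several of which are themselves its targets. The promoters of LTB and of NFKBIA, which encodes the inhibitor IkB alpha, are shown because both genes rose and both windows hold a match to the consensus kappa-B motif of NF-kB, which allows either purine or pyrimidine at several of its 10 positions (both strands searched). Each is the 250 bases before the gene's start in RefSeq on GRCh38.p14, read on the strand of the gene, with the match in capitals. Both matches appear as the reverse complement.
LTB promoter, chr6:31582426-31582675, minus strand: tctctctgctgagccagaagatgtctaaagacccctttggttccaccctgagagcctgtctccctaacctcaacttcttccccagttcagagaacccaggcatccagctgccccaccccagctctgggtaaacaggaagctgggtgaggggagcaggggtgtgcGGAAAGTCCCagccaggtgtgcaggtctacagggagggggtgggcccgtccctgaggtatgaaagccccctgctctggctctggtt
NFKBIA promoter, chr14:35404750-35404999, minus strand: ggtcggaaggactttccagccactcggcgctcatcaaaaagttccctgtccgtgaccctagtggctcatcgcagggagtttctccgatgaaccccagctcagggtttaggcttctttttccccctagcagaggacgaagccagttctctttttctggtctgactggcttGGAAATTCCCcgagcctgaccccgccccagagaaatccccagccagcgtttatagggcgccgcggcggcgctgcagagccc
The match begins at base 165 of the LTB window and at base 170 of the NFKBIA window. The motif was found in 8.11% of the 10549 promoters of tested genes that could be matched, in 8.29% of those of genes that rose and in 7.08% of those of genes that fell. In the list of NF-kB subunits and regulators it was found in 7 of 21, 33.3%. Other lists held it as well, with 6 of 13 promoters of HLA class I antigen presentation (46.2%) and 6 of 21 of interleukins (28.6%). A match is a description of the letters, not evidence of binding.

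In the NF-kB list 10 of 24 tested genes rose and 4 fell, with a median of 0.11. Inhibitors and survival factors were among those that rose. NFKBIA stood at 69.8, 59.7 and 71.5 CPM in the Luc976 samples and 104, 112 and 101 CPM in the shKIM1-A1 samples, a rise of 0.66 (SE 0.07, edgeR adjusted p = 5.37e-06). BIRC3, an inhibitor of apoptosis that also ubiquitinates the kinase NIK, went from 50.5, 57.8 and 50.9 CPM to 111, 86.0 and 102 CPM, a rise of 0.91. TRAF1, an adaptor of TNF receptors, rose by 0.62, TNFAIP3 (A20), a deubiquitinase that shuts the pathway down, by 0.48, and RELB, the subunit of the non-canonical pathway, by 0.42. TNFAIP3 missed the threshold in set B alone. The genes that fell were NFKBIB (-0.55), MAP3K14, which encodes NIK (-0.49), and the kinase subunits IKBKB (-0.28) and IKBKG (-0.29). Without sample 1 of Luc976 or sample 3 of shKIM1-A1 2 of the list fell. The last pair missed the threshold without sample 1 of Luc976 (edgeR adjusted p = 0.0579 and 0.181). The subunits RELA (-0.18), NFKB2 (0.03) and REL (-0.02) did not pass.

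Chemokines rose more often than they fell. Of 11 chemokines tested 6 rose and 1 fell, CCL2, which had a mean of only 0.432 CPM in the controls. CXCL8, the main attractant of neutrophils, went from 50.01, 58.6 and 52.0 CPM to 96.5, 90.3 and 104 CPM (log2 0.86, SE 0.08), and no knockdown sample reached down to a control. CXCL16, a membrane-bound chemokine and scavenger receptor, rose by 1.37 from 2.14 CPM and CXCL2 by 0.48. CSF2, which encodes GM-CSF, rose by 0.67 and CSF1, which encodes M-CSF, by 0.35. In the TNF superfamily 6 of 21 tested genes rose and 6 fell. The death ligand TNFSF10 (TRAIL) went from 222, 244 and 234 CPM to 445, 397 and 458 CPM, a rise of 0.89 without overlap. TNFRSF9 (4-1BB) rose by 0.72, while the receptors TNFRSF21, TNFRSF12A and TNFRSF1A fell by 0.60, 0.40 and 0.27. Among interleukins and IL-6 family genes 6 of 30 rose and 8 fell. The falls were of receptors and of other ligands of the family: LIFR fell by 1.16, IL11 by 1.03, CLCF1 by 0.58, IL4R by 0.45 and the receptor chain IL6R by 0.43.

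Interferon-response genes changed in both directions. Of 35 tested members 9 rose and 4 fell, with a median of 0.07. STAT2, a transcription factor of the type I interferon pathway, stood at 44.0, 43.3 and 41.8 CPM in the Luc976 samples and 60.3, 57.5 and 54.7 CPM in the shKIM1-A1 samples, and rose by 0.42 (SE 0.07, edgeR adjusted p = 0.000202). The RNA sensor IFIH1 (MDA5) rose by 0.76, the guanylate-binding proteins GBP1 and GBP2 by 0.49 and 0.62, and IRF5, outside this list, by 1.29. The falls were IFI44L, from 28.8, 28.8 and 25.4 CPM to 10.3, 9.75 and 10.1 CPM (log2 -1.46), and IFITM1 (-0.98), IFITM2 (-2.31) and IFITM3 (-1.16), membrane proteins that block virus entry. Reads of the IFITM genes can be shared, since their coding sequences are near copies, so their separate values are uncertain. MX1 (-0.09), IFI35 (-0.07) and IRF9 (-0.10) did not pass.

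**Figure D3:**
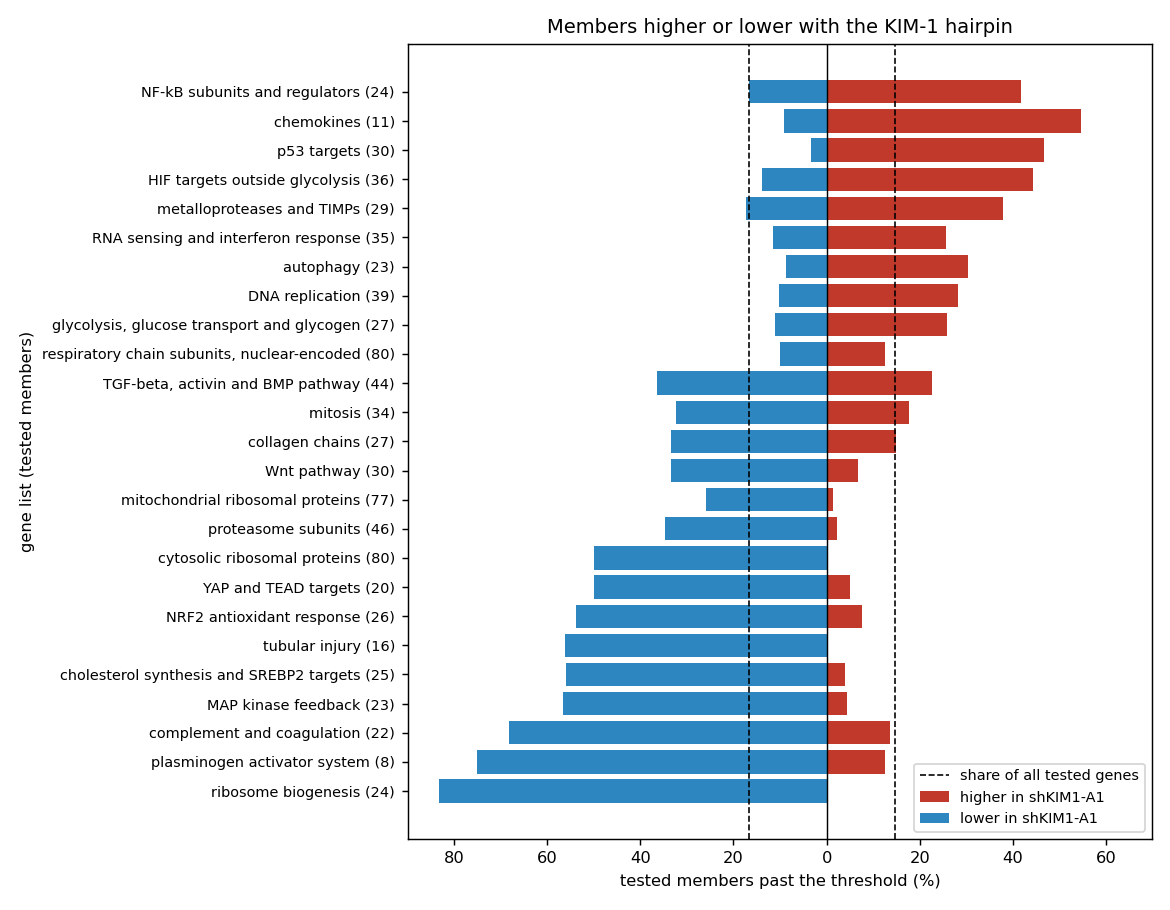
Share of tested members that rose (right) or fell (left) in shKIM1-A1 against Luc976, in percent, for gene lists; the dashed lines mark the shares over all genes tested, 14.8% higher and 16.6% lower. Ribosome biogenesis, with 83.3% of its members lower, and complement and coagulation, with 68.2% lower, lie far beyond the line on the lower side.

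Genes that report and restrain MAP kinase signalling mostly fell. ERK activity induces dual-specificity phosphatases, Sprouty and SPRED proteins and ETV transcription factors, which in turn dampen the pathway. Of 23 tested members 13 fell and 1, DUSP10, rose (0.26). The list median was -0.44 against 0.0059 over all genes, and -0.46 inside set A and -0.36 inside set B. DUSP9 stood at 17.5, 16.2 and 18.8 CPM in the Luc976 samples and 4.89, 5.90 and 4.47 CPM in the shKIM1-A1 samples, a fall of 1.78. DUSP6, the cytoplasmic phosphatase of ERK, went from 86.2, 83.1 and 82.0 CPM to 60.8, 56.0 and 59.3 CPM (log2 -0.51, SE 0.06, edgeR adjusted p = 5.63e-06). The groups overlapped for neither gene. ETV4, an ETS factor, fell by 0.69, SPRY4 by 0.69, SPRY1 by 0.72, SPRED1 by 0.52 and PHLDA1 by 0.64. ETV5 (-0.13) and DUSP1 (-0.20) did not pass. Among EGF family genes the ligand HBEGF went from 16.5, 15.5 and 17.3 CPM to 6.89, 5.38 and 7.67 CPM, a fall of 1.30. NRG1 fell by 0.42, while ERRFI1, a feedback inhibitor of the EGF receptor, rose by 0.70 and the receptor ERBB3 by 0.88. In the AP-1, MYC and immediate early list, where 5 of 21 tested genes rose (2 to 3 without any 1 sample other than sample 1 of shKIM1-A1) and 4 fell (7 without sample 2 of shKIM1-A1), FOSL1 fell by 0.36 and MYC by 0.26, whereas EGR1 rose by 0.66.

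Factors of ribosome biogenesis, which build ribosomes in the nucleolus, mostly fell. Of 24 tested factors 20 fell and 0 rose. The median was -0.33, and -0.338 inside set A and -0.345 inside set B. RRP9, a component of the U3 particle that cuts ribosomal RNA precursors, stood at 55.8, 47.3 and 50.8 CPM in the Luc976 samples and 32.8, 32.4 and 29.3 CPM in the shKIM1-A1 samples, and fell by 0.70 (SE 0.08, edgeR adjusted p = 7.18e-06). BOP1, of the PeBoW complex of the large subunit, fell by 0.65, UTP20, a small-subunit processing factor, by 0.57, and the RNA methyltransferase NOP2 by 0.52. The abundant nucleolar genes moved less: NCL (nucleolin) went from 1632, 1724 and 1606 CPM to 1329.7, 1293 and 1398 CPM (log2 -0.30), and NPM1 (nucleophosmin) fell by 0.28. POLR1A, the largest subunit of RNA polymerase I, fell by 0.35 and its initiation factor RRN3 by 0.37. FBL (-0.14), NHP2 (-0.10), POLR1B (-0.09) and GAR1 (0.01) did not pass.

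Genes of the cytosolic ribosomal proteins fell by smaller amounts. Of 80 tested 40 fell and 0 rose, with a median of -0.19. Many of these genes have processed pseudogenes whose reads they can share, so single values are uncertain. RPL12 stood at 1293, 1368 and 1432 CPM in the Luc976 samples and 925, 1056 and 951 CPM in the shKIM1-A1 samples, a fall of 0.48 (SE 0.06) without overlap, and RPS2 fell by 0.40. Inside set A 28 and inside set B 64 of the 80 were called lower. On TPM the median was -0.09, with 27 called lower and 1 higher. For mitochondrial ribosomal proteins 20 of 77 fell and 1 rose, MRPS33 (0.51), but the median turned from -0.08 to 0.01 on TPM, so the list has no direction that both scalings share. Without sample 3 of Luc976 13 of them fell, and without sample 1 of shKIM1-A1 12. Proteasome subunits, the parts of the main protein-degrading complex, fell in 16 of 46 cases and rose in 1, PSMA5 (0.17), which missed the threshold without sample 1 of Luc976 (edgeR adjusted p = 0.101). Their median was -0.11, and -0.02 on TPM. The regulatory subunit PSMD12 went from 87.8, 89.4 and 77.5 CPM to 57.2, 42.9 and 66.4 CPM (log2 -0.61).

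**Figure D4:**
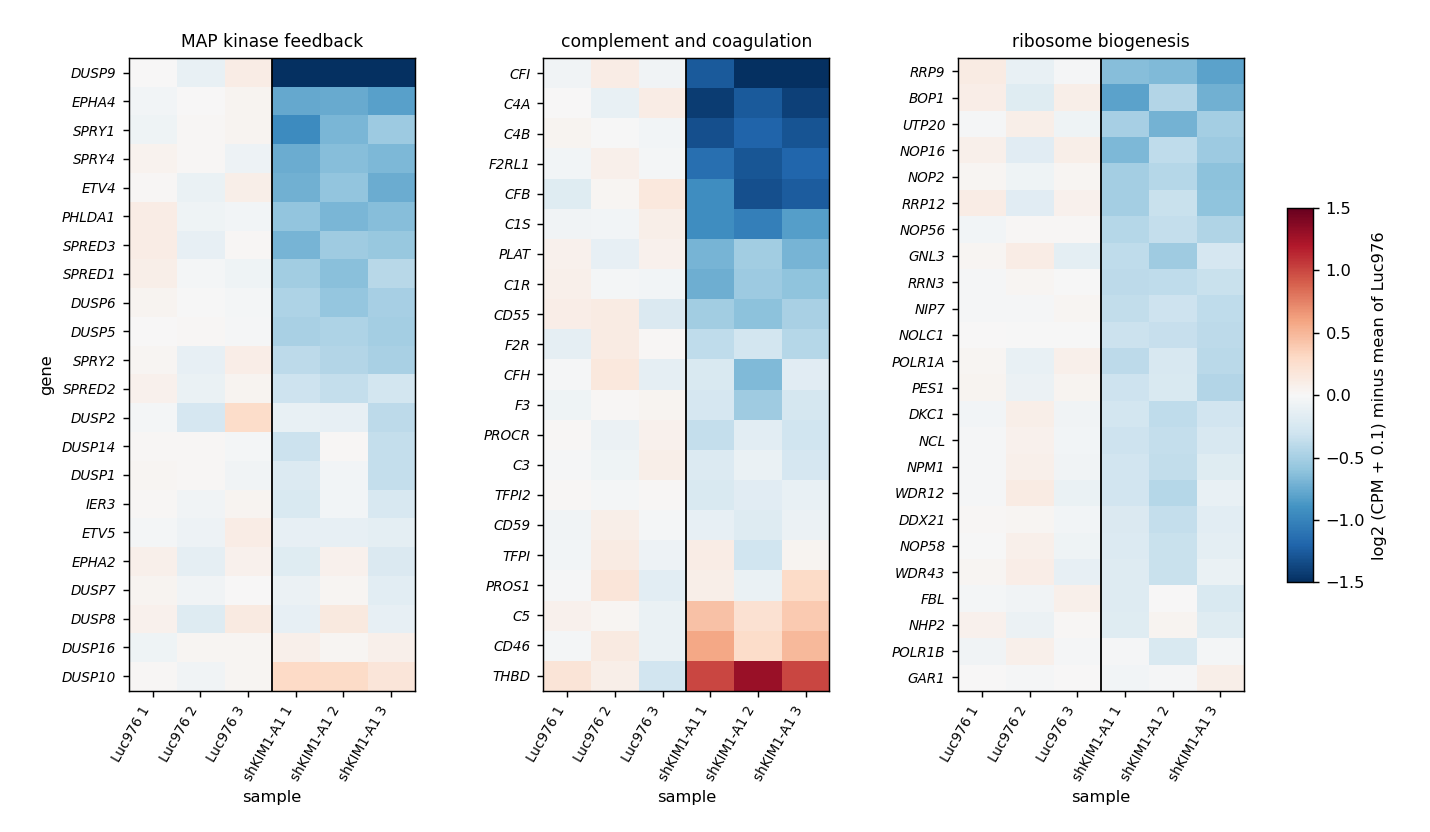
Level of each list member in each sample as log2 (CPM + 0.1) minus the mean of the Luc976 samples, for MAP kinase feedback, complement and coagulation, and ribosome biogenesis; members with under 1 CPM in Luc976 are left out and colours saturate at 1.5 either way. The 3 shKIM1-A1 columns are blue for most members of each panel, with THBD, CD46 and C5 the red rows of the complement panel.

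Among regulators of the cell cycle the inhibitors moved apart. CDKN1A, the p53-induced inhibitor p21, stood at 25.6, 23.9 and 29.4 CPM in the Luc976 samples and 97.7, 113 and 95.8 CPM in the shKIM1-A1 samples, a rise of 1.96 (SE 0.08, edgeR adjusted p = 3.46e-10). CDKN1C (p57) went the other way, from 9.31, 10.6 and 9.81 CPM to 4.53, 3.95 and 4.13 CPM (log2 -1.24). The D cyclins, which start the G1 phase, also split. CCND2 went from 71.7, 75.5 and 73.7 CPM to 152, 143 and 149 CPM, a rise of 1.01, while CCND3 fell by 0.58 and CCND1 by 0.30. CDKN2C rose by 0.54 and RBL2, a pocket protein of resting cells, by 0.66. In the p53 target list 14 of 30 rose and 1, AEN, fell (-0.37). RRM2B, the p53-induced ribonucleotide reductase subunit, rose by 0.78, ZMAT3 by 0.61, BTG2 by 0.53, SESN1 by 0.53 and BBC3 (PUMA) by 0.52. MDM2 differed by -0.06 (edgeR adjusted p = 0.69) and did not pass. Among BCL2 family genes the largest rise was BMF, a death-promoting BH3 protein, from 7.94, 9.42 and 9.69 CPM to 25.4, 26.5 and 23.6 CPM (log2 1.48). BID fell by 0.42, BCL2L1 by 0.31 and BAK1 by 0.26.

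Genes of DNA replication and mitosis changed in both directions. Of 39 replication genes 11 rose (28.2%) and 4 fell (10.3%), with a median of 0.05. Over all genes tested 14.8% rose and 16.6% fell. TYMS (thymidylate synthase) went from 149.5, 150.3 and 147 CPM to 192, 188 and 194 CPM (log2 0.36), PCNA, the sliding clamp, rose by 0.32 and the helicase subunit MCM6 by 0.35. Of 34 mitosis genes 6 rose (17.65%, near the share over all genes) and 11 fell (32.35%), with a median of -0.01. CDC20, an activator of the anaphase-promoting complex, went from 427, 386 and 422 CPM to 308, 354 and 309 CPM (log2 -0.35), and the kinases AURKA and AURKB fell by 0.35 and 0.29. Without sample 1 of Luc976 the replication rises were 6 and the mitosis rises 2, and leaving out any 1 of the 6 samples left 1 or 2 replication falls. Mitosis rises were also 1 without sample 3 of Luc976, 0 without sample 1 of shKIM1-A1 and 2 without its sample 3.

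Hypoxia-inducible factors (HIF), which VHL marks for breakdown when oxygen is present, drive a known set of targets, and these rose more often than they fell. Of 36 tested targets outside glycolysis 16 rose and 5 fell. The median was 0.20, and 0.15 inside set A and 0.14 inside set B. BHLHE41, a circadian repressor induced by hypoxia, stood at 10.1, 10.5 and 9.93 CPM in the Luc976 samples and 22.7, 19.3 and 21.1 CPM in the shKIM1-A1 samples, a rise of 1.04 (SE 0.09, edgeR adjusted p = 4.74e-07) without overlap. P4HA1, a collagen prolyl hydroxylase, went from 115, 128 and 113 CPM to 194, 163 and 203 CPM (log2 0.66) and PLOD2, a collagen lysyl hydroxylase, from 76.8, 81.6 and 69.1 CPM to 127, 94.8 and 145 CPM (log2 0.69). VEGFA, the endothelial growth factor, rose by 0.38, NDRG1 by 0.39, the histone demethylases KDM3A and KDM4B by 0.35 and 0.40, and INSIG2 by 0.79. The carbonic anhydrases went the other way: CA9 fell by 0.51 and CA12 by 0.31, with EGLN3 (-0.38) also lower. CA9 missed the threshold without sample 1 of shKIM1-A1 (edgeR adjusted p = 0.0571). Of 15 HIF subunits and oxygen sensors 0 rose and 5 fell, among them EPAS1, which encodes HIF-2 alpha and went from 357, 337 and 365 CPM to 290.2, 291 and 269.6 CPM (log2 -0.32). HIF1A differed by -0.08 (edgeR adjusted p = 0.474). Without sample 1 or sample 3 of Luc976, or sample 1 of shKIM1-A1, 3 of the 15 fell. Of 27 glycolysis genes 7 rose, among them PFKL (0.47), PDK1 (0.54), SLC2A3 (0.44) and ENO2 (0.34), and 3 fell, GAPDH, HK1 and PFKM (5 without sample 2 of shKIM1-A1). GAPDH missed the threshold inside set A and without sample 1 of shKIM1-A1 (edgeR adjusted p = 0.0588).

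The promoter of P4HA1 is shown as an example of the group, with the HIF core motif ACGTG (either strand) in capitals, here as its reverse complement from base 165. It is the window of 250 bases before the gene's start, RefSeq on GRCh38.p14.
P4HA1 promoter, chr10:73096867-73097116, minus strand: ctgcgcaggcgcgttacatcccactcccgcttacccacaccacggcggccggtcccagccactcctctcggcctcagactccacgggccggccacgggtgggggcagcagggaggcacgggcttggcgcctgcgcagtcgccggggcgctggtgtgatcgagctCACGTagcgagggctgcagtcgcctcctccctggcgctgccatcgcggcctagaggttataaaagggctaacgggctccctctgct
This motif is short and was found in 23.4% of the 10549 promoters, in 25.1% of those of genes that rose and in 22.9% of those of genes that fell. Of the HIF target promoters 21 of 30 held it (70%), in a list made of known targets. Other lists held it often too, with 9 of 15 lysosomal promoters (60%) and 6 of 11 of superoxide dismutases and peroxidases (54.5%).

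Most genes of cholesterol synthesis fell. Of 25 tested enzymes and SREBP2 targets 14 fell and 1, TM7SF2, rose (0.31, edgeR adjusted p = 0.0816 without sample 2 of Luc976). The list median was -0.22, and -0.21 inside set A and -0.26 inside set B. LSS, lanosterol synthase, stood at 216, 183 and 214 CPM in the Luc976 samples and 123, 140.4 and 121 CPM in the shKIM1-A1 samples. It fell by 0.67 (SE 0.08, edgeR adjusted p = 1.3e-05). The enzymes MVD, DHCR7 and FDFT1 fell by 0.55, 0.38 and 0.30. In fatty acid synthesis, where 3 of 12 genes rose and 4 fell (2 without sample 1 or 2 of Luc976 or sample 2 or 3 of shKIM1-A1), ELOVL5 rose by 0.39 and ME1 by 0.47. Among lipid transport genes ABCA1, the cholesterol exporter, rose by 0.37 and APOE fell by 0.53. Of 17 fatty acid oxidation genes 6 rose and 3 fell, with a median of 0.12. CPT1A, the entry enzyme of mitochondrial oxidation, rose by 0.85, while PDK4 went from 9.31, 9.47 and 8.09 CPM to 4.26, 3.53 and 3.98 CPM (log2 -1.19) and PPARG fell by 0.71.

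The LSS promoter is shown because sterol-regulated promoters commonly pair a sterol element with the NF-Y motif CCAAT, which stands in capitals as its reverse complement from base 101 (same window and source).
LSS promoter, chr21:46228775-46229024, minus strand: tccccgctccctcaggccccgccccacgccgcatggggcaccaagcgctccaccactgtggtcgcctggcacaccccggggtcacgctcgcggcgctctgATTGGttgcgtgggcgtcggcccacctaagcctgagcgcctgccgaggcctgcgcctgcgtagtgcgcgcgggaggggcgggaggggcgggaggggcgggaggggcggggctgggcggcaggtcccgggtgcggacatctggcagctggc
CCAAT on either strand was found in 35.0% of all matched promoters and in 15 of 18 promoters of this list, 83.3%. CCAAT was in 37.5% of the promoters of genes that rose and 33.6% of those of genes that fell. It was also common in other lists, with 22 of 26 promoters of ER chaperones (84.6%) and 20 of 28 of mitosis genes (71.4%). A sterol element motif, CACCCCAC, was found in only 1 of the 18 promoters of the cholesterol list (5.56%), against 2.23% of all matched promoters.

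Antioxidant genes of the NRF2 programme fell in 14 of 26 cases and rose in 2, PIR (0.37) and ME1. NFE2L2, which encodes NRF2, went from 91.3, 99.5 and 86.4 CPM to 68.6, 67.9 and 69.5 CPM (log2 -0.43). NQO1, a quinone reductase, stood at 199, 205 and 214 CPM in the Luc976 samples and 149, 144 and 148 CPM in the shKIM1-A1 samples and fell by 0.49 (SE 0.06). The pentose phosphate enzymes TKT and PGD fell by 0.37 and 0.33. On TPM 8 members were called lower and 4 higher. The mitochondrial superoxide dismutase SOD2, also a known NF-kB target, went from 64.7, 66.5 and 71.9 CPM to 31.3, 30.9 and 30.7 CPM, a fall of 1.13 without overlap. In the amino acid stress list, where 6 of 25 genes rose and 6 fell, ASNS rose by 0.53 and PHGDH by 0.38, while the exchanger SLC7A5 and its partner SLC3A2 fell by 0.55 and 0.43. SLC38A5, a glutamine carrier, fell by 0.92.

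Receptors and ligands of the TGF-beta family changed in both directions. Of 44 tested genes 10 rose (22.7%) and 16 fell (36.4%), against 14.8% and 16.6% over all genes tested. Leaving out any 1 of the 6 samples left 7 to 8 rises and 15 to 16 falls. TGFBR1, the type I receptor, went from 11.4, 8.86 and 9.45 CPM to 23.5, 18.7 and 24.5 CPM (log2 1.17). The coreceptors fell: ENG (endoglin) stood at 83.2, 70.9 and 81.0 CPM in the Luc976 samples and 31.9, 40.1 and 36.0 CPM in the shKIM1-A1 samples, a fall of 1.12 (SE 0.09, edgeR adjusted p = 2.21e-07), and TGFBR3 (betaglycan) fell by 1.18. The activin chains INHBA and INHBB fell by 1.13 and 2.77, BMP4 by 1.44 and the decoy receptor BAMBI by 1.06. TGFB1 rose by 0.33 and the BMP antagonist GREM1 by 0.54. Of the intracellular parts, SMAD3 fell by 0.30 and the inhibitor SMAD7 by 0.40. In the Wnt list 10 of 30 fell (6 without sample 3 of shKIM1-A1) and 2 rose. AXIN2, a feedback target of beta-catenin, went from 8.05, 6.94 and 7.91 CPM to 3.89, 3.58 and 2.85 CPM (log2 -1.15), and LGR4, a receptor for R-spondins, fell by 0.82. In the Notch list HES1 fell by 0.83 and the ligand JAG1 by 0.72, while RBPJ rose by 0.67.

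Targets of YAP and TEAD, the factors that respond to cell tension and density, fell in 10 of 20 cases (12 inside set A and 7 inside set B) and rose in 1, NUAK2 (0.25; edgeR adjusted p = 0.0795 without sample 2 of Luc976). CTGF went from 79.5, 81.0 and 75.7 CPM to 39.6, 38.5 and 40.6 CPM (log2 -0.99, SE 0.06), and no samples overlapped. CRIM1 fell by 0.56, NT5E by 0.46, ANKRD1 by 0.41 and YAP1 itself by 0.37. CYR61 differed by 0.12 (edgeR adjusted p = 0.0559). On TPM only 4 members were called lower and 2 higher, and without sample 3 of Luc976 6 fell.

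Of 15 tested matricellular genes, whose products modulate the matrix, 8 fell and 1 rose. THBS2, thrombospondin-2, stood at 214, 190.3 and 199 CPM in the Luc976 samples and 55.2, 61.2 and 53.6 CPM in the shKIM1-A1 samples, a fall of 1.83 (SE 0.07, edgeR adjusted p = 1.14e-10). All 3 knockdown samples lay far below all 3 controls. TGFBI fell by 0.82, the proteoglycan BGN by 1.81, the fibulin FBLN2 by 1.14 and CCDC80 by 1.32. The fibulin EFEMP1 fell by 1.10. Of 27 collagen chains 9 fell and 4 rose (2 without sample 2 of either group). COL4A1, a main chain of the tubular basement membrane, went from 1070.5, 966 and 1108 CPM to 618, 705 and 628 CPM (log2 -0.69), and its partner COL4A2 fell by 0.40, COL1A1 by 0.67 and COL5A1 by 0.58. Chains of laminin-332, the anchor of epithelia to their membrane, rose: LAMB3 went from 271, 224 and 266 CPM to 427, 514 and 443 CPM (log2 0.86), and LAMA3 rose by 0.40. FN1, fibronectin, rose by 0.22 from 3272 TPM.

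Among proteases that cut the matrix 11 of 29 rose and 5 fell. MMP7 (matrilysin), a marker of tubular injury, stood at 89.8, 96.7 and 93.8 CPM in the Luc976 samples and 29.1, 27.2 and 30.1 CPM in the shKIM1-A1 samples, a fall of 1.70 (SE 0.06), and ADAMTS15 fell by 1.91. MMP9 rose by 0.72, MMP11 by 0.87, MMP15 by 0.74 and MMP13 by 1.05 from 2.16 CPM. In the plasminogen activator system 6 of 8 genes fell and 1 rose. PLAT, tissue plasminogen activator, went from 279, 246 and 279 CPM to 164, 186 and 165 CPM (log2 -0.64). The inhibitor SERPINE2 fell by 0.74 and the urokinase receptor PLAUR by 0.47, while urokinase itself, PLAU, rose from 451, 430.3 and 455 CPM to 637, 715 and 638 CPM (log2 0.57).

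Most complement and coagulation genes fell. Of 22 tested 15 fell and 3 rose. Leaving out any 1 of the 6 samples left 12 to 14 falls. The median was -0.34, and -0.38 inside set A and -0.32 inside set B. C1R and C1S, the proteases that start the classical pathway, fell by 0.63 and 0.94, the latter from 11.7, 11.8 and 13.0 CPM to 6.32, 5.90 and 6.83 CPM. CFB, the protease of the alternative pathway, went from 7.31, 8.46 and 9.27 CPM to 4.32, 3.27 and 3.44 CPM (log2 -1.18), and C3, the central component, fell by 0.19 from 600.1 CPM, a fall that missed the threshold without sample 3 of Luc976 (edgeR adjusted p = 0.116). The regulators CFI and CD55 fell by 1.51 and 0.55, while CD46, which assists CFI in cutting C3b, rose by 0.45. C4A fell by 1.37, but its reads cannot be told from those of its near copy C4B. F2RL1, a receptor cut by trypsin-like proteases, stood at 75.7, 82.1 and 76.5 CPM in the Luc976 samples and 35.5, 32.1 and 34.3 CPM in the shKIM1-A1 samples, a fall of 1.20 (SE 0.07, edgeR adjusted p = 1.2e-08). PROCR, the protein C receptor, fell by 0.27, and thrombomodulin (THBD) rose by 1.14 from 1.19 CPM.

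Junction genes shifted between family members. Of 17 tight junction genes 5 rose and 5 fell. CLDN2, a claudin that forms cation pores in this epithelium, stood at 205, 212 and 221 CPM in the Luc976 samples and 115, 117 and 105 CPM in the shKIM1-A1 samples, a fall of 0.92 (SE 0.06, edgeR adjusted p = 1.55e-08), and CLDN11 fell by 0.81. CLDN1, a sealing claudin, went from 327, 347 and 309 CPM to 479, 413 and 496 CPM (log2 0.50), and OCLN, occludin, rose by 1.21 from 1.82 CPM. Cadherins split as well. CDH6, the cadherin of the developing proximal tubule, went from 165, 185 and 169 CPM to 307, 303 and 316 CPM (log2 0.84), while CDH2 fell by 0.45 and CDH3 by 0.54. EPCAM rose by 0.84. The intermediate filament genes KRT18 and VIM, which rise in injured tubules, fell by 0.59 and 0.45. In the tubular injury list, which includes HAVCR1, 9 of 16 fell and 0 rose. LCN2 (-0.25) and CLU (-0.04) did not pass.

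Of the 13 testable proximal tubule genes 5 rose and 1 fell. MIOX, an oxygenase of the proximal tubule, stood at 27.1, 20.8 and 23.8 CPM in the Luc976 samples and 49.9, 51.9 and 45.2 CPM in the shKIM1-A1 samples, a rise of 1.04 (SE 0.11) without overlap. GATM, of creatine synthesis, rose by 0.78, the peptidases MME and DPP4 by 0.73 and 0.42, and AGMAT fell by 0.58. In the list of kidney lineage factors 0 of 15 rose and 3 fell, KLF5 (-0.68), FOXC1 (-0.41) and CUX1 (-0.31). PAX8 differed by 0.11 (edgeR adjusted p = 0.204).

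By the difference in mean TPM, the largest gain was that of TMSB4X, thymosin beta 4, which binds actin monomers and went from 4892 to 7425 TPM on average. TPM is a relative measure, on which all genes shift against the CPM fit, as given above. AKR1B1, aldose reductase, went from 2088 to 2729.7 TPM, G0S2 from 348 to 675 TPM, and CD24 from 268 to 465 TPM. On the losing side stood ribosomal protein transcripts, such as RPS18 from 7067 to 6195 TPM, and GAPDH from 8973 to 8129 TPM.

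Some of the genes that moved with the KIM-1 hairpin also stood away from Luc976 in the shVHL61 group, which does not carry it. Both comparisons share the Luc976 samples, so the values are only set side by side. THBS2 had a mean of 201 CPM in Luc976, 56.7 in shKIM1-A1 and 74.6 in shVHL61. CDKN1A had 26.3, 102 and 71.3 CPM, TMX3 14.4, 39.3 and 43.5 CPM, and CFI 16.5, 5.78 and 6.67 CPM. For others the shVHL61 mean lay nearer to Luc976. In the same order LTB had 3.60, 22.6 and 5.98 CPM, RRAD 19.7, 55.8 and 21.1 CPM, and MMP7 93.4, 28.8 and 124 CPM. With 1 hairpin per target, what is common to hairpins and what belongs to KIM-1 cannot be told apart.

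The same KIM-1 hairpin in cells that also carry shVHL61 gives a second comparison of 3 against 3 that shares no sample with the first. There 6055 genes passed (42.6%), 21.2% of those tested higher and 21.3% lower, and 2253 were called in the same direction in both settings, 50.5% of those called alone and 37.2% of those called with shVHL61. Of the 2108 genes that rose alone, 1001 also rose with shVHL61 and 152 fell, and of the 2356 that fell, 1252 also fell and 186 rose. Across the 14230 genes, which are not independent replicates, Pearson's r between the log2 fold changes was 0.313. The difference between the settings itself passed for 2811 genes (19.8%). HAVCR1 fell by 0.78 with shVHL61, and the difference from its fall alone was 0.31 (SE 0.14, edgeR adjusted p = 0.152). With length and GC trends removed it was 0.24 (edgeR adjusted p = 0.12). In DESeq2 it was 0.30 (DESeq2 adjusted p = 0.158) and on TPM 0.13 (limma adjusted p = 0.622). With the library set as a term it was 0.46 (edgeR adjusted p = 4.25e-05), and inside sets A and B 0.34 and 0.57. The sets were read from the scatter of these same counts, so a fit that uses them lowers that scatter by construction.

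Ribosome biogenesis genes fell in both settings, 20 of 24 alone and 21 of 24 with shVHL61, and MAP kinase feedback genes 13 and 17 of 23. MERTK fell by 0.82 alone and by 0.95 with shVHL61, ENG by 1.12 and 1.13, and CLDN2 by 0.92 and 0.75. The p53 targets rose in 14 and 15 of 30 cases. Cytosolic ribosomal protein genes turned: 40 of 80 fell alone, while 28 rose and 2 fell with shVHL61, and the difference passed for 49 of them. Complement and coagulation genes fell in 15 of 22 cases alone, but with shVHL61 9 rose and 3 fell, and the difference passed for 18. CFB fell by 1.18 alone and rose by 1.02 with shVHL61. HIF targets rose in 16 of 36 cases alone and 30 with shVHL61, with a difference past the threshold for 25, and the cholesterol list, with 14 falls of 25 alone, had 5 falls and 6 rises.

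**Figure D5:**
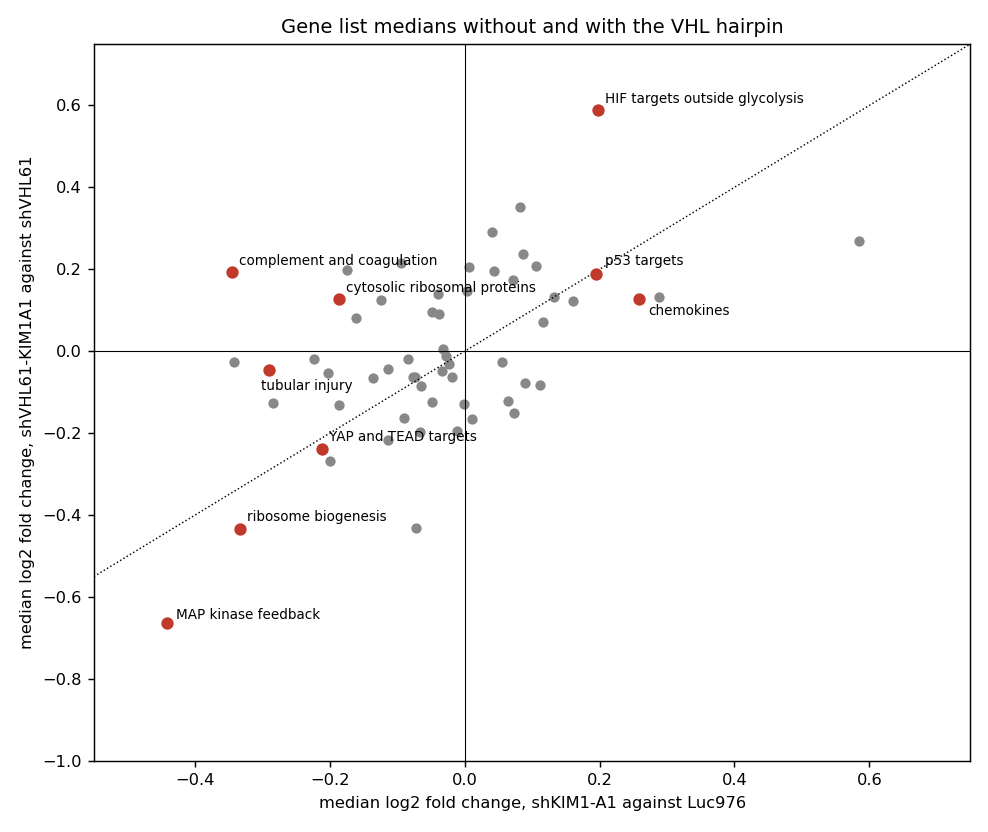
Median log2 fold change of each gene list of at least 8 tested members with the KIM-1 hairpin alone (horizontal) and in cells that also carry shVHL61 (vertical); the dotted line marks equal values and labelled lists are in red. Ribosome biogenesis, MAP kinase feedback and YAP targets lie low on both axes, while complement and cytosolic ribosomal proteins lie left of 0 and above it.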

How the data were processed

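RNA of 12 HK-2 samples was sequenced by the submitters, and 1 table of all samples was used. Its expected counts, which are estimates and can carry decimals, are the authors' own, per the file headers. Of these, 89.7% to 90.4% in each of the 6 samples were exactly whole. The deposited TPM and FPKM are likewise the authors' values, and FPKM served only to derive effective lengths. The authors' deposited fold, a linear ratio of each group to Luc976, was used for HAVCR1, and the deposited PPEE score, which runs from 0 to 1, was set beside the calls. The submitters' processing notes list Bowtie 0.12.2 and, as builds, mm8 and mm9, which are of mouse, although the gene symbols are human. No source used here gives the quantifier, annotation, strand setting or human build, and genes that overlap or have near copies are uncertain.

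Expected counts were rounded, filtered with filterByExpr (minimum count 10), scaled by TMM (factors 0.984 to 1.05) and fitted in edgeR 4.0.16 (R 4.3.3) over all 12 samples with 4 groups, with 8 residual degrees of freedom and a biological coefficient of variation of 6.81%. The quasi-likelihood test was two-sided with Benjamini-Hochberg adjustment over 14230 genes, threshold 0.05. SE is the log2 fold change over the square root of F. The difference between the KIM-1 hairpin's effects with and without shVHL61 is a contrast of the same fit. TPM was fitted with limma 3.58.1 as log2(TPM + 1), and counts also with DESeq2 1.42.0. The test was run on simulated counts for this comparison over 14230 genes, with 100 genes changed at each fold. It recovered 88% of 2-fold and 76.8% of 1.5-fold changes and made 8 false calls. Those counts were drawn gene by gene without the GC differences between libraries, so they do not show how the test behaves under them. Replicates differed by 2.72 to 12.0 times the sampling noise (chi-square over its degrees of freedom), so no pair agreed within that noise.

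The 64 gene lists and the members named were chosen with earlier results of these data known, and counts over them are descriptions. Named genes are VHL and HAVCR1, the 20 largest rises and falls whose mean log2 CPM reached 2 and whose groups did not overlap, the 10 largest TPM changes each way, up to 6 rises and 6 falls with the smallest p per list, members of lists of at most 30 genes, and the 5 largest differences each way with shVHL61. Other members of longer lists were named after their values were seen. Some genes that this rule covers are not reported here. Promoters are RefSeq, GRCh38.p14, matched by symbol for 10549 genes (74.1%). The table's own comparisons with shVHL61 and of other groups were not used here. A paired fit, other scalings, sets A and B and leaving out each sample were tried.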

Additional observations from a re-analysis of the deposited data

Results flagged for a closer look

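The KIM-1 hairpin's effect differed between cells without and with shVHL61, by the contrast of the 2 effects in the edgeR fit, for 2811 genes. Values below are the effect with shVHL61 minus the effect alone, on the log2 scale, each past the adjusted threshold. Of the 40 largest changes alone, 30 differed, 11 of 20 rises and 19 of 20 falls. With shVHL61, 14 of the 20 rises were also called higher, while 6 of the 20 falls were called lower and 6 higher. Over all genes tested the difference passed for 19.8%, and with shVHL61 21.2% were called higher and 21.3% lower. The 40 were picked by the effect alone, which is subtracted in the difference. That choice by itself favours smaller rises and smaller falls with shVHL61.

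Among the rises, the effect was smaller with shVHL61 for IL23A (-1.83), UCA1 (-1.56), TMX3 (-1.53), TRPV3 (-1.42), CDKN1A (-1.20), LTB (-1.10), TGFBR1 (-1.03), OCLN (-0.91), IL6 (-0.80) and PRKCB (-0.74), and larger for DEFB1 (0.54). The DEFB1 difference had an edgeR adjusted p of 0.0437, and of 0.166 with length and GC trends removed. IL23A rose by 1.93 alone and differed by 0.10 with shVHL61.

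Among the falls of secreted and matrix genes, the difference was 2.33 for BGN, 1.91 for CCDC80, 1.71 for THBS2, 1.34 for ADAMTS15 and 1.79 for MMP7. CFI gave 1.69 and C4A, whose reads may be C4B's, 1.62. For signalling and membrane genes it was 1.71 for BMP4, 2.13 for PCDH1, 1.56 for RASL11B, 1.47 for RFTN1, 1.05 for PPP1R14B, 1.00 for DUSP9 and 0.85 for SEMA4A. KRT81 gave 1.96, IFI44L 0.78 and the readthrough gene RTEL1-TNFRSF6B, whose reads overlap other genes, 1.91.

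Among genes whose log2 CPM averaged 2 or more, the largest positive differences were those of INHBB (4.38), CA9 (3.10), IFITM2 (2.54), CDA (2.43) and MAP1LC3C (2.36). INHBB had a mean of 5.21 CPM in Luc976 and 0.764 in shKIM1-A1, against 12.6 in shVHL61 and 38.5 in shVHL61-KIM1A1. CA9 went from 6.08 to 4.26 CPM alone and from 2.07 to 12.5 CPM with shVHL61. The largest negative ones were those of SHC3 (-3.91), GPC4 (-3.03), FBN1 (-2.80), FUT9 (-2.56) and KIF26B (-2.30). FBN1, fibrillin-1, had 52.2 and 56.8 CPM alone, and 20.5 and 3.21 CPM with shVHL61.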

How the results depend on the processing

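HAVCR1, the counts of changed genes and the direction of every called gene named above were recomputed under 11 alternatives and with each of the 6 samples left out. No called gene reversed. Of 251 called genes named, 228 stayed past the threshold throughout and 23 missed it under at least 1 setting, 9 of them on TPM, where CUX1, DROSHA, NPM1, TFRC and YAP1 are among those not called. Leaving out 1 sample gave 3333 to 5169 changed genes, 1513 to 2435 higher, 1820 to 2734 lower and 348 to 393 of at least 2-fold, and HAVCR1 ran from -1.13 to -1.01. On log2(TPM + 1), limma called 1402 genes lower and 91 at least 2-fold; the pseudocount shrinks changes of low genes by construction. RLE scaling gave 4459 changed genes, no filter 4400, the 6 samples alone 3842, DESeq2 4278, length and GC trends removed 6444, and the library set as a term 6208, of which 4446 are among the 4464. The difference between the settings without and with shVHL61 passed for 4418 genes with length and GC trends removed and for 4764 with a term for the library set; the cause was not tested. Across genes the log2 fold change had a Spearman correlation of -0.174 with transcript GC content.

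Same-numbered samples of the 2 groups did not deviate together (correlations -0.103, -0.331 and -0.195), so numbers were not taken as pairs. With the replicate block 3876 genes changed, and with the block and length and GC trends removed 6256. With the block the difference with shVHL61 passed for 2241 genes. Within a set only 3 samples enter for these groups, so the spread comes from 2 residual degrees of freedom over all 4 groups. Genes under 1 CPM rest on under 20 reads a sample.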

Other observations

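Gene groups outside the comparisons above gave a few more values. Of 23 autophagy genes 7 rose (4 without sample 1 of Luc976) and 2 fell (1 without sample 1 of Luc976 or sample 2 of shKIM1-A1): ATG14, of the kinase complex that starts autophagosomes, went from 13.3, 12.2 and 11.6 CPM to 19.8, 20.2 and 20.3 CPM (log2 0.70), ULK1 rose by 0.36 and MAP1LC3B fell by 0.39. Of 80 nuclear-encoded respiratory chain subunits 10 rose and 8 fell (5 without sample 1 of either group), with NDUFB10 at -0.83 and UQCRB at 0.44. Of 28 lysosomal genes 6 fell (21.4%) and 2 rose (7.14%; 0 without sample 1 of either group or sample 2 of Luc976). CTSB (-0.32) and CTSL (-0.28) were among those that fell. In the small RNA machinery, which also processes hairpins, 4 of 13 genes fell and 1 rose (0 without any 1 Luc976 sample or sample 1 of shKIM1-A1), with DROSHA at -0.20 and XPO5 at -0.22; on TPM none of the 13 was called. In the actin list TPM4 went from 444, 469 and 446 CPM to 648, 628 and 649.9 CPM (log2 0.50), while LIMA1 fell by 0.41. The iron importer TFRC fell by 0.29 and the exporter SLC40A1 rose by 0.52.

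The authors' deposited table gives a PPEE below 0.05 for 2436 of the tested genes in this comparison, and 2365 of these were also called by edgeR, all in the same direction. The edgeR fit called 4464 genes, so many of its calls had no PPEE below 0.05. Among these were OCLN (PPEE 0.992), IFIH1 (PPEE 0.993), MMP13 (PPEE 0.9999), GBP2 (PPEE 0.9998), SPRED1 (PPEE 0.963) and SPRY1 (PPEE 0.846). CPT1A, BTG2, THBD, CA9, EGLN3, SMAD7, DUSP10 and BAMBI, named above as changed, were also among them. Both sets of calls rest on the same libraries, so a shared direction is no independent support.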
